A study of Mus musculus with 8 samples.

Results

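The proteasome is the protease complex that degrades ubiquitin-tagged proteins in the cytosol and nucleus. Its core particle is a barrel of alpha and beta rings with the proteolytic sites inside, and its regulatory particle, made of a base with ATPases and a lid, binds ubiquitin, removes it and unfolds the substrate. In lymphocytes the 3 constitutive catalytic beta subunits can be replaced by immunoproteasome subunits, which interferon gamma induces. When proteasome activity falls short, the transcription factor NRF1 (gene *Nfe2l1*) is known to raise the subunit genes together through antioxidant response elements in their promoters.

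The constitutive subunit genes were taken as all protein-coding genes with a symbol of *Psma*, *Psmb*, *Psmc* or *Psmd* and a number, without the immunoproteasome genes *Psmb8*, *Psmb9* and *Psmb10*. This gave 36 of the 54838 genes counted, 16 of the core particle (*Psma*, *Psmb*) and 20 of the regulatory particle (*Psmc*, *Psmd*). The teNK group was 4 libraries of splenic natural killer (NK) cells from MMTV-PyMT mice, which the series design calls tumour-bearing and which express polyoma middle T antigen from a mammary tumour virus promoter. The hNK group was 4 libraries of the same cells from healthy wild-type FVB/n mice. In both groups the cells were sorted as CD45+, CD49b+ and CD3-, and were kept for 12 to 16 h in a medium with cytokines before RNA was taken, per the labels. The sources used here give no ages, no cytokine names, no number of animals per library and no strain for the MMTV-PyMT mice. No label says that libraries of a group came from separate animals, so p-values cover the variation among these libraries only, and that variation may be technical.

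Reads on genes numbered 13111043 to 16209895 per teNK library and 5202131 to 12419324 per hNK library, and counting error is therefore larger in hNK. The first principal component of the 13903 genes that passed a filter on low counts held 77.0% of the variance and separated the groups. The 10 NK cell markers summed to 8960 to 9543 CPM in teNK and 5025 to 5803 CPM in hNK. CPM are read counts relative to a library size adjusted by a scaling factor. Of these markers, 9 were higher in teNK and 1, *Eomes*, lower. Markers of other cells also differed: the 8 platelet markers summed to 164 to 282 CPM in teNK and 17.8 to 41.6 CPM in hNK. All 7 tested were higher, and *Gp1bb*, not tested, was at 0 in hNK and had 3, 2, 2 and 2 reads in teNK. The 8 myeloid markers summed to 71.0 to 96.3 CPM in teNK and 10.2 to 15.2 CPM in hNK, where *S100a8* and *S100a9* were at 0. *Itgax* alone made up most of the teNK sum, with 59.9 to 80.8 CPM in teNK and 5.74 to 10.4 CPM in hNK. Of 3 tested, 2 were higher, *Itgax* (log2 fold change 3.27) and *Lyz2* (3.72), and *Cd68* (0.06) was not called. The 8 B cell markers summed to 117 to 141 CPM in teNK and 85.6 to 123 CPM in hNK, and 7 of the 8 were called higher. Most of this sum was *Ighm*, the gene not called, with means of 96.5 CPM in teNK and 95.8 CPM in hNK. The 8 T cell markers summed to 98.3 to 115 CPM in teNK and 93.5 to 119 CPM in hNK, and 1 of 4 tested was higher. *Cd28*, not called, made up most of this sum, with means of 78.2 CPM in teNK and 77.1 CPM in hNK. The gene called higher was *Cd3d*, with means of 4.91 CPM in teNK and 2.25 CPM in hNK. *Cd3e* (log2 fold change -0.51) and *Cd3g* (0.25) were not called. *Cd8a* and *Cd5* were at 0 in hNK and had at most 1 read in any teNK library, so they do not separate the groups. The 8 erythroid markers stayed at 2.73 to 10.9 CPM in teNK and 0 to 0.542 CPM in hNK, where *Hba-a2*, *Hbb-bs* and *Klf1* were among those at 0. *Hba-a2* was at 0 in teNK too. The 8 cell cycle genes summed to 457 to 577 CPM in teNK and 90.8 to 182 CPM in hNK, and all 8 were higher. The part of other cells, of the cell cycle and of depth in the results on subunits was not tested. In bulk RNA, fewer cells of a type and less RNA per cell cannot be told apart.

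Constitutive subunit genes were mostly lower in teNK than in hNK, by small amounts. Of the 34 that passed the filter on low counts, 19 were lower and 1, *Psmd14*, was higher (edgeR quasi-likelihood test, Benjamini-Hochberg adjusted p under 0.05 over all genes), and 14 were not called. In the whole table of 13903 genes, 51.9% were called, 25.6% as lower and 26.4% as higher. The median log2 fold change of the 34 genes was -0.20, within a range of -0.76 to 0.18, against a median of -0.02 over all genes tested. A value below 0 was found for 31 of the 34, against 7240 of all 13903 genes tested. No overlap between teNK and hNK libraries was found for 19 of the 34 (55.9%), all lower in teNK, against 46.5% of all genes and 22.4% of all genes in that direction. A change of at least 1.5-fold was called for 1 gene, *Psmd7*, and of at least 2-fold for 0. Over all 13903 genes tested, 3730 were called past 1.5-fold and 1957 past 2-fold. With library size alone as the scaling, which moved the median of all genes to -0.15, 29 of the 34 were lower and 0 higher, with a median of -0.33, and 13 of these 29 were core genes. All 36 genes together took 0.194% to 0.208% of the reads on genes in teNK and 0.247% to 0.266% in hNK, and these ranges did not overlap.

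**Figure D1:**
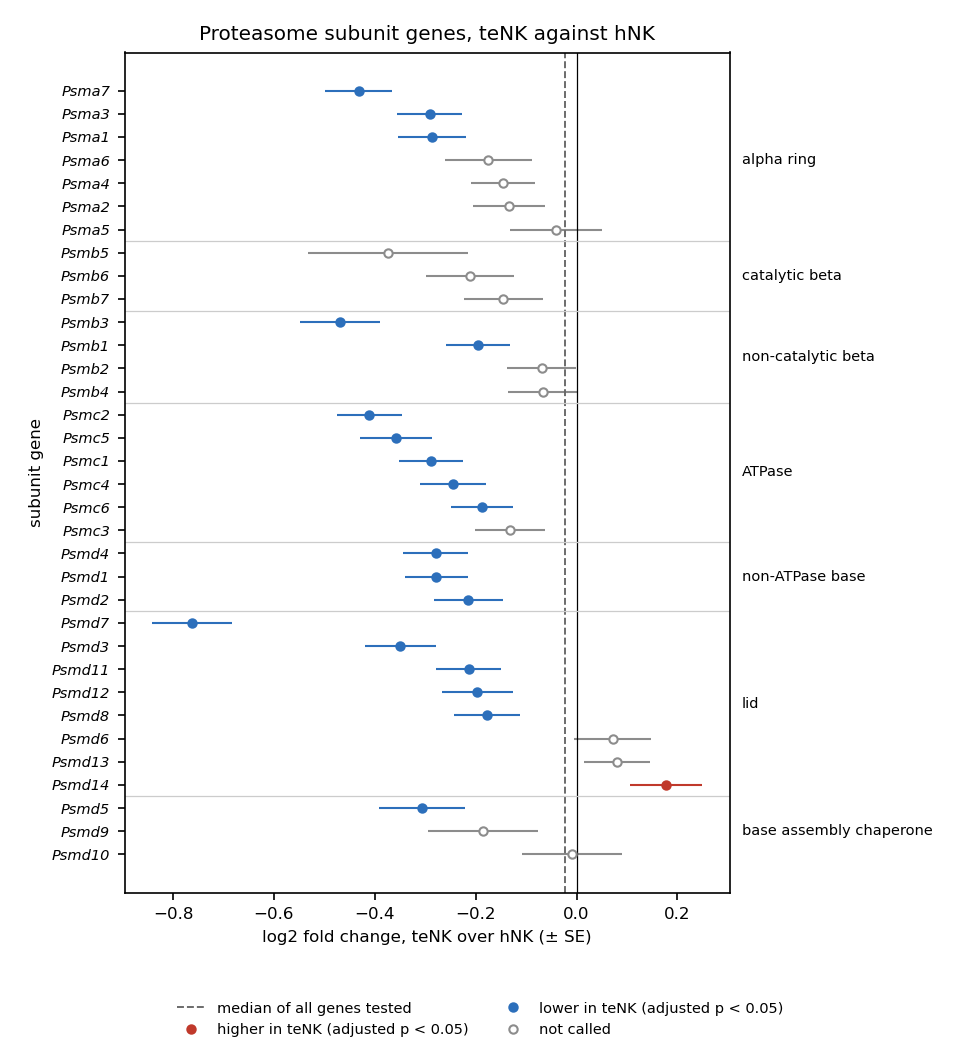
Log2 fold change of each of the 34 tested subunit genes, teNK over hNK, grouped by role, with bars of 1 SE from edgeR and n = 4 libraries per group. Filled points passed an adjusted p under 0.05, and the dashed line is the median of all genes tested (-0.02); 31 points lie below 0, and *Psmd7* lies farthest from it at -0.76.

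Reads were nearly or wholly lacking for 2 core genes. *Psma8*, an alpha subunit of male germ cells, had 1, 0, 0 and 1 reads in teNK replicates 1 to 4 and 0, 2, 0 and 0 reads in hNK replicates 1 to 4. *Psmb11*, the catalytic subunit of the thymoproteasome of cortical thymic epithelium, had 0 reads in all 8 libraries. The floor, 3 counts, corresponds to 0.185 to 0.229 CPM in teNK and 0.242 to 0.577 CPM in hNK. These floor values are over all reads on genes, without the scaling factor used for other CPM values. Both were below the filter and were not tested.

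Promoter windows of 300 bases, 250 before and 50 after the RefSeq transcription start (GRCm38.p6), were found for 29 of the 36 genes, with 2 windows each for *Psma6* and *Psmc2*. *Psma8*, *Psmb1*, *Psmb2*, *Psmb7*, *Psmc3*, *Psmd3* and *Psmd7* had no entry. The windows below are those of *Psmb5* and *Psmb6*, catalytic subunits with an antioxidant response element core, of *Psmb3* and *Psmc2*, the genes of each particle with the largest fall among those with a window, and of *Psmd14*, the only gene called higher. They run 5′ to 3′ along the gene, and capitals mark each match to a searched motif on either strand. *Psmb5* is at chr14:54617946-54618245 (minus strand), *Psmb6* at chr11:70525107-70525406, *Psmb3* at chr11:97703184-97703483, *Psmc2* at chr5:21785025-21785324 and *Psmd14* at chr2:61711444-61711743 (plus strand).
Psmb5: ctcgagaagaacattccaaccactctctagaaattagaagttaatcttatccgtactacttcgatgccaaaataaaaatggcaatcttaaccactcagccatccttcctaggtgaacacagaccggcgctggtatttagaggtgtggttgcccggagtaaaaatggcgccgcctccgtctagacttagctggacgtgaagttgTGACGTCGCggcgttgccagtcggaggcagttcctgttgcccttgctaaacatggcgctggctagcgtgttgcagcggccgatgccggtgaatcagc
Psmb6: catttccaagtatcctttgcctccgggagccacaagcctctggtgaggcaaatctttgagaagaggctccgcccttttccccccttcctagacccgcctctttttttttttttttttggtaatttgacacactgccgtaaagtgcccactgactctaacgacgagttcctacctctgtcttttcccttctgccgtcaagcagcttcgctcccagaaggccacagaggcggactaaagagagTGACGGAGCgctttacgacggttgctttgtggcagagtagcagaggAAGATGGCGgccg
Psmb3: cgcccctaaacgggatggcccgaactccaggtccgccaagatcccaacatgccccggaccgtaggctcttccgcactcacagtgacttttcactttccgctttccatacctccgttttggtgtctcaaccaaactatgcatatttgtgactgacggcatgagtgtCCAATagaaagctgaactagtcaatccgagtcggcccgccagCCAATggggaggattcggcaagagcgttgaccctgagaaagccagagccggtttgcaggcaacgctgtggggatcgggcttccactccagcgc
Psmc2: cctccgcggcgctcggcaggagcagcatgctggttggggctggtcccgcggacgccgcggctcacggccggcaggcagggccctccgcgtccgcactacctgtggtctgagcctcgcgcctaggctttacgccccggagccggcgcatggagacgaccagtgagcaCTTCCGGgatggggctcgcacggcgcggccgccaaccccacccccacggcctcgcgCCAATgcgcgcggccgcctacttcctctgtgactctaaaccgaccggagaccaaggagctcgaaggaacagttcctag
Psmd14: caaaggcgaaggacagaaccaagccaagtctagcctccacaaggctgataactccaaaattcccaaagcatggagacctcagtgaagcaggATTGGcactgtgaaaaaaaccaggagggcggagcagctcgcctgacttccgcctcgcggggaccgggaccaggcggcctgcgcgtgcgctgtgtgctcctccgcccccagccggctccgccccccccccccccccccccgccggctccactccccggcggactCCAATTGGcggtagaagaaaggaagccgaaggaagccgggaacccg

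The core of the antioxidant response element, TGACNNNGC, occurred in 5 of the 31 windows (16.1%), against 12.4% of all 32851 promoter windows. *Psmb5* held TGACGTCGC starting 47 bases before its start and *Psmb6* held TGACGGAGC 9 bases before its start; the other matches were in *Psmd9* (31 bases before), *Psmc6* (227) and *Psmd12* (247). The NF-Y box CCAAT was in 12 windows (38.7%, against 37.4% of all), among them *Psmb3* at 85 and 43 bases before its start and *Psmc2* at 28. In *Psmd14* the same letters and their complement overlap as CCAATTGG just after the start, with a further match 159 bases before it. The ETS motif CCGGAAG was in 11 windows of 10 genes (35.5%, against 8.86% of all), among them *Psmc2* at 84 bases before its start. CACGTG, an E box, was in 2 windows (6.45%, against 7.15%), AAGATGGCG, a YY1 motif, in 2 (6.45%, against 1.40%), one of them that of *Psmb6*, and the cyclic AMP response element TGACGTCA in 0 (against 1.79%). Median log2 fold changes of tested genes were -0.20 for 5 genes with the antioxidant core and -0.21 for 23 without, and -0.21 for 10 genes with the ETS motif and -0.23 for 18 without. For CCAAT the medians were -0.29 for 11 genes with it and -0.20 for 17 without, for the YY1 motif -0.28 for 2 and -0.21 for 26, and for the E box -0.17 for 2 and -0.21 for 26. A match is a run of letters and no evidence of binding, and differences between these medians were not tested.

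In the core particle, 5 of 14 tested genes were lower in teNK and 0 higher, with a median log2 fold change of -0.19; all 14 values were below 0 and 6 genes had groups that did not overlap. The 35.7% called was below the 51.9% of all genes, and the 35.7% lower was above the 25.6% of all genes called lower. The 42.9% without overlap was near the 46.5% of all genes in either direction. All of these core genes without overlap were lower in teNK, a direction that held 22.4% of all genes. Among the 7 genes of the alpha ring, which gates the barrel, 3 were lower. *Psma7* (ENSMUSG00000027566, chromosome 2, 180036374 to 180042433) showed the largest fall of the ring. It had 72.7, 62.5, 66.4 and 65.6 CPM in teNK replicates 1 to 4, against 84.1, 94.0, 92.7 and 89.97 CPM in hNK replicates 1 to 4. Every teNK library was below every hNK library, and the log2 fold change was -0.43 ± 0.07 (SE; adjusted p = 4.13e-05). *Psma1* and *Psma3* also fell, by 0.29 each on the log2 scale. *Psma4* had a value of -0.15 and groups that did not overlap, but its adjusted p was 0.0654. *Psma2* (-0.13), *Psma5* (-0.04) and *Psma6* (-0.17) were not called, and *Psma5* shared 49.96% of its 50-base words with transcripts of other genes, so its count is uncertain.

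The 3 constitutive catalytic genes gave values below 0 and none passed the test. *Psmb5*, the chymotrypsin-like subunit (ENSMUSG00000022193, chromosome 14, 54614119 to 54618022), had 6.58, 5.46, 8.19 and 7.95 CPM in teNK, against 7.73, 8.97, 9.73 and 10.5 CPM in hNK. Its groups overlapped, and the log2 fold change was -0.37 ± 0.16 (adjusted p = 0.0597). It shared 54.1% of its 50-base words with other genes, a processed pseudogene among them, so its level is uncertain. *Psmb6*, the caspase-like subunit (ENSMUSG00000018286, chromosome 11, 70525367 to 70527858), had 35.5, 26.8, 31.01 and 30.6 CPM in teNK, against 35.7, 35.8, 34.6 and 37.4 CPM in hNK. Only teNK replicate 1 reached the hNK values, and the log2 fold change was -0.21 ± 0.09 (adjusted p = 0.0537). *Psmb7*, the trypsin-like subunit (ENSMUSG00000026750, chromosome 2, 38588036 to 38644087), had 36.9, 34.7, 38.7 and 34.7 CPM in teNK, against 38.2, 38.0, 40.1 and 45.3 CPM in hNK. Here too the groups overlapped in part, at -0.15 ± 0.08 (adjusted p = 0.132). These results lie near the threshold: of 16 alternative settings, 5 called *Psmb5* lower (adjusted p from 0.0130 to 0.183), 4 called *Psmb6* lower (0.00329 to 0.182) and 1, library size alone, called *Psmb7* lower (0.00879 to 0.340). Upper-quartile scaling and library size alone each called both *Psmb5* and *Psmb6*, and limma-voom called *Psmb6*. Leaving out 1 library brought calls for *Psmb5* (-0.46 without hNK replicate 1, -0.45 without teNK replicate 3) and *Psmb6* (-0.28 without teNK replicate 1).

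Of the 4 other beta genes, which shape the rings without cutting, 2 were lower. *Psmb3* (ENSMUSG00000069744, chromosome 11, 97703399 to 97713500), whose promoter holds the pair of CCAAT boxes shown above, had the largest fall of the core. It had 46.4, 38.2, 44.1 and 41.1 CPM in teNK, against 53.4, 63.0, 57.4 and 61.4 CPM in hNK. The groups did not overlap, at -0.47 ± 0.08 and an adjusted p of 0.000110. *Psmb3* shared 17.8% of its 50-base words with transcripts of other genes. Among other genes called lower, *Psmd2* (17.8%), *Psma3* (15.4%) and *Psmc1* (14.1%) also shared such words. The effect of this sharing on their counts was not tested. *Psmb1* fell by 0.20, a call lost without teNK replicate 2 (-0.15), while *Psmb2* and *Psmb4* (-0.07 each) were not called. Core genes called lower numbered 10 with upper-quartile scaling and 8 without hNK replicate 1, and *Psma2* (-0.19) and *Psma6* (-0.25) were among these 8.

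In the regulatory particle, 14 of 20 genes were lower in teNK and 1 higher, with a median log2 fold change of -0.21, and 13 had groups that did not overlap. The share called was 75.0%, against 51.9% of all genes, and the share without overlap was 65.0%, against 46.5%. The medians of the particles thus differed little, and whether a larger share of genes changed in the regulatory particle was not tested. The ATPases, which unfold the substrate and open the gate of the core, were lower for 5 of 6, with a median of -0.27. *Psmc2* (ENSMUSG00000028932, chromosome 5, 21785283 to 21803787) showed the largest fall of these. It had 65.3, 66.5, 73.0 and 73.9 CPM in teNK, against 88.0, 95.1, 93.3 and 94.1 CPM in hNK. The gap between the groups was wider than the range of either, at -0.41 ± 0.06 (adjusted p = 4.95e-05). *Psmc1* (-0.29), *Psmc4* (-0.24), *Psmc5* (-0.36) and *Psmc6* (-0.19) were also called, and *Psmc3* (-0.13) was not. The call of *Psmc6* was lost without hNK replicate 3 (-0.14) and without teNK replicate 3 (-0.17).

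All 3 other base subunits, the ubiquitin receptor *Psmd4* and the scaffolds *Psmd1* and *Psmd2*, were lower. *Psmd4* (ENSMUSG00000005625, chromosome 3, 95032694 to 95042614) had 60.9, 57.0, 62.3 and 64.3 CPM in teNK, against 77.8, 73.3, 70.3 and 74.8 CPM in hNK. No teNK library reached an hNK value, and the log2 fold change was -0.28 ± 0.06 (adjusted p = 0.00163). *Psmd1* (-0.28) and *Psmd2* (-0.21) had groups that did not overlap, and the call of *Psmd2* was lost without teNK replicate 2 (-0.16).

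The lid, which removes ubiquitin chains, held both extremes. The deubiquitinase *Psmd14* acts as a dimer with *Psmd7*, a partner without catalytic activity, and the values of the pair lay on opposite sides of 0. *Psmd7* (ENSMUSG00000039067, chromosome 8, 107580381 to 107588464) had 35.1, 35.4, 39.2 and 40.7 CPM in teNK, against 61.9, 57.8, 67.3 and 69.6 CPM in hNK. Its highest teNK library was far below its lowest hNK library. The gene fell by 41.1% (log2 fold change -0.76 ± 0.08, adjusted p = 5.30e-07), and it was called under all 16 alternative settings (-0.89 to -0.73).

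*Psmd14* (ENSMUSG00000026914, chromosome 2, 61711694 to 61800376) had 100.2, 93.0, 101.1 and 99.1 CPM in teNK, against 75.6, 89.0, 95.8 and 88.9 CPM in hNK. The groups overlapped at hNK replicate 3, and the log2 fold change of 0.18 ± 0.07 passed the test narrowly (adjusted p = 0.0484). It was called in 4 of 16 alternative settings, with adjusted p from 0.0195 to 0.581. Among the single libraries left out, the call was lost without teNK replicate 1 (0.17), 3 (0.17) or 4 (0.18) and without hNK replicate 1 (0.11), 2 (0.19) or 4 (0.19). *Psmd3* (-0.35), *Psmd8* (-0.18), *Psmd11* (-0.21) and *Psmd12* (-0.20) were called lower. *Psmd6* (0.07) and *Psmd13* (0.08) were not called, and both values were below 0 with library size alone. *Psmd8* lost its call without hNK replicate 1 (-0.14) and without teNK replicate 1 (-0.17), 2 (-0.14) or 3 (-0.17). *Psmd12* lost it without hNK replicate 3 (-0.15) or 4 (-0.18) and without teNK replicate 2 (-0.17), 3 (-0.19) or 4 (-0.20).

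The rule also takes 3 genes of chaperones that assemble the base and leave the finished particle, of which 1 was lower. *Psmd5* (ENSMUSG00000026869, chromosome 2, 34849734 to 34874968) had 48.4, 46.9, 59.0 and 51.5 CPM in teNK, against 55.5, 65.1, 65.8 and 69.0 CPM in hNK. Only teNK replicate 3 and hNK replicate 1 overlapped, at -0.31 ± 0.09 (adjusted p = 0.00652). *Psmd9* (-0.19) and *Psmd10* (-0.01), the gene of gankyrin, were not called.

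**Figure D2:**
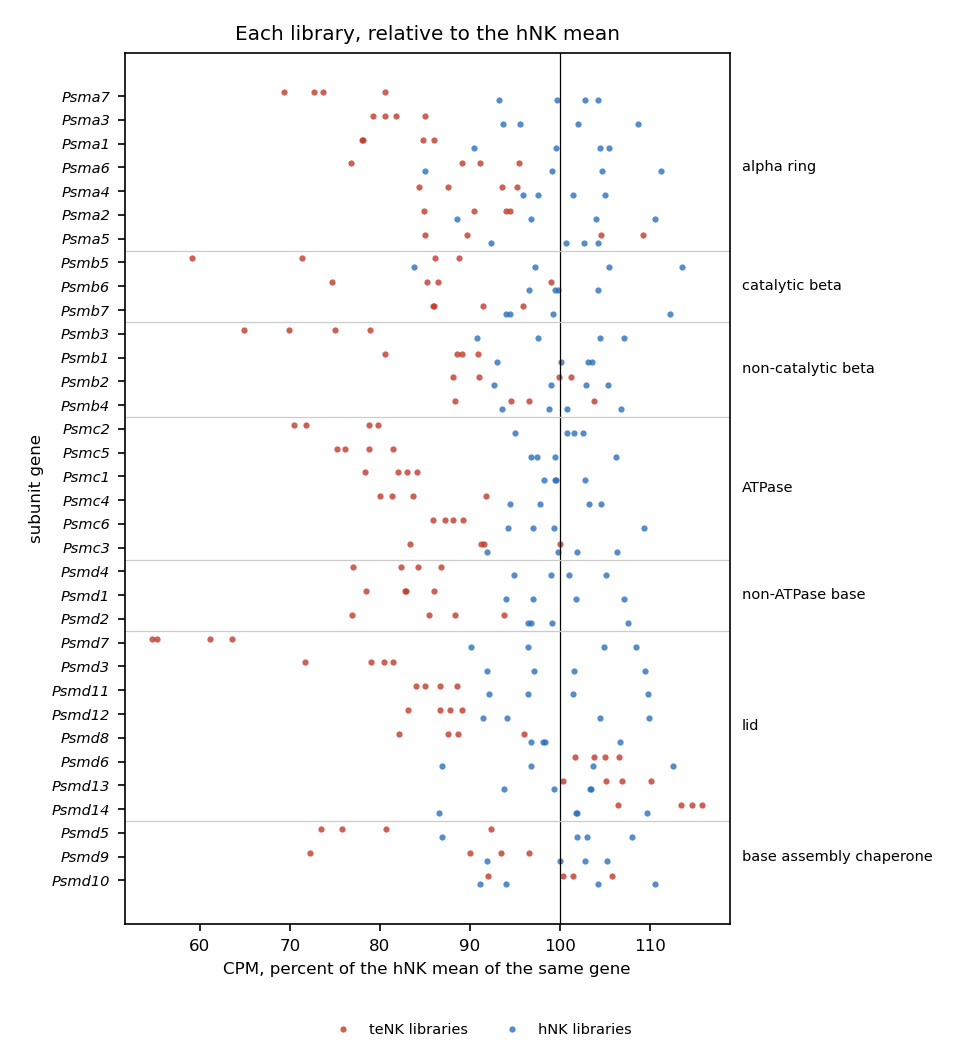
CPM of each of the 34 genes in every library, as a percent of the mean of the 4 hNK libraries for that gene, with teNK points above hNK points in each row. For 19 genes, all lower in teNK, the points of the groups do not overlap; *Psmd7* is the farthest left and *Psmd14* is shifted right with overlap.

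Summed over tested genes, the core particle reached 779 to 874 CPM in teNK and 903 to 1013 CPM in hNK. The regulatory particle reached 1219 to 1323 CPM in teNK and 1433 to 1536 CPM in hNK. In neither sum did the groups overlap. Per length, as TPM (a length-scaled share of all transcripts), the core took 48.3% ± 0.593 of the summed subunits in teNK and 48.1% ± 0.774 in hNK (SD, n = 4 each). The difference of 0.264 percentage points was smaller than the SD of either group, and its sign was negative when CPM (-0.0112) or the longest transcript (-0.263) replaced the exon-union TPM, or without hNK replicate 1 (-0.112).

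**Figure D3:**
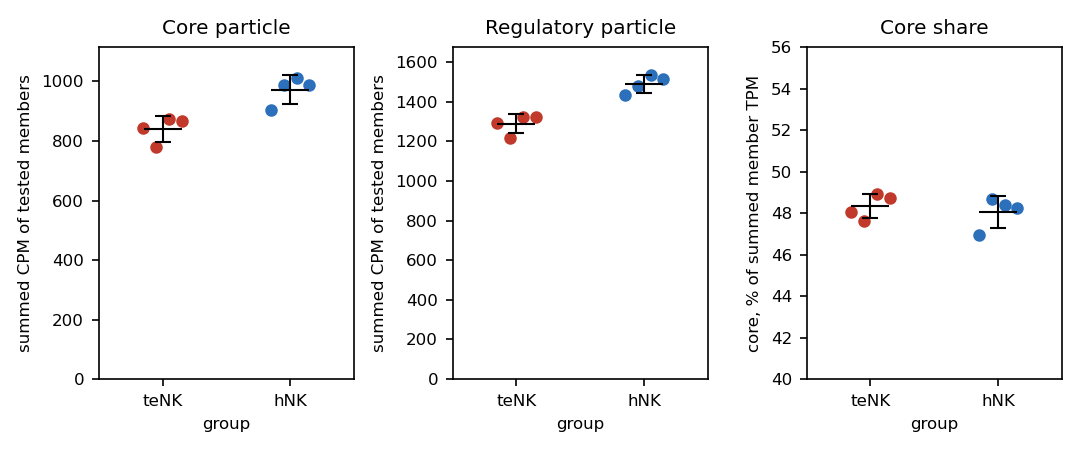
Summed CPM of tested core genes and of tested regulatory genes, and the core's percent of the summed TPM, per library, with the group mean and SD (n = 4). Both sums are lower in every teNK library than in every hNK library, and the shares of the groups overlap near 48%; the axis of the share starts at 40%.

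Levels of subunits that sit together in 1 complex were spread widely. Over the 31 subunits of the standard particle that were tested, TPM ran from 21.2 (*Psmb5*) to 154 (*Psmb2*) in teNK, a 7.27-fold range. In hNK it ran from 26.6 (*Psmb5*) to 166 (*Psma6*), a 6.25-fold range. The level of *Psmb5* is uncertain because of shared sequence, and so is the width of both ranges. The next lowest was *Psmb7*, at 28.9 in teNK and 30.5 in hNK. *Psmd7* was 24th of the 31 by TPM in teNK and 13th in hNK, and *Psmd14* was 4th in teNK and 10th in hNK. The median coefficient of variation of CPM between libraries was 5.71% in teNK and 5.92% in hNK. Over the 7359 genes in the same range of level it was 6.66% in teNK and 9.55% in hNK. The libraries were not level across the set: teNK replicate 2 was the lowest of its group for 27 of the 34 genes, and hNK replicate 1 was the lowest of its group for 19.

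The immunoproteasome genes moved the other way from the constitutive set. All 3 were called higher in teNK, against 26.4% of all genes. *Psmb8* averaged 85.3 ± 7.71 CPM in teNK and 70.3 ± 9.28 CPM in hNK (SD, n = 4 each), a log2 fold change of 0.29 ± 0.09. *Psmb9* averaged 29.9 ± 1.32 CPM in teNK and 24.3 ± 3.31 CPM in hNK (0.30 ± 0.10), and *Psmb10* averaged 52.4 ± 4.18 CPM in teNK and 41.8 ± 2.19 CPM in hNK (0.33 ± 0.08). Their adjusted p values were 0.0117, 0.0179 and 0.00150 in that order, and the groups overlapped for *Psmb8* only. With library size alone as the scaling, *Psmb8* (0.16) and *Psmb9* (0.17) were no longer called. The call of *Psmb8* was also lost without hNK replicate 2 (0.23) and that of *Psmb9* without hNK replicate 1 (0.20).

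Each immunoproteasome subunit takes the place of 1 constitutive subunit, so their ratio within a library needs no scaling between libraries. The log2 ratio of *Psmb8* to *Psmb5* reads was 3.59, 3.84, 3.44 and 3.57 in teNK and 3.03, 2.79, 2.94 and 2.96 in hNK, a difference of 0.68 in the means, or 1.60-fold. For *Psmb9* to *Psmb6* it was -0.32, 0.12, -0.02 and 0.03 in teNK and -0.84, -0.36, -0.50 and -0.58 in hNK, a difference of 0.53, or 1.44-fold. For *Psmb10* to *Psmb7* it was 0.56, 0.45, 0.40 and 0.71 in teNK and 0.09, 0.06, 0.08 and -0.02 in hNK, a difference of 0.48, or 1.39-fold. In all 3 ratios every teNK library was above every hNK library. Each had a two-sided exact permutation p of 0.0286, also 0.0286 after adjustment over the 3, the smallest that 4 libraries against 4 can give. Levels of these ratios depend on gene length and, for *Psmb5*, on shared sequence, so only their difference between groups is read.

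**Figure D4:**
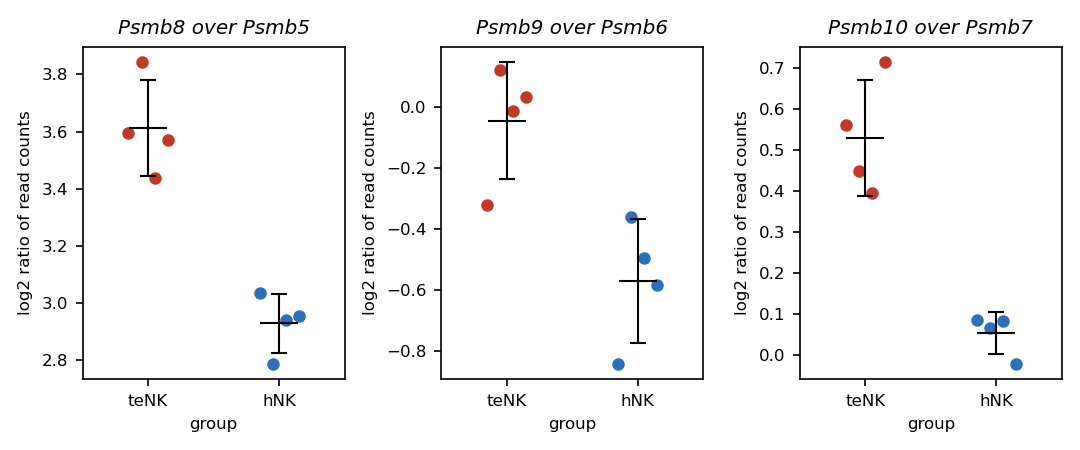
Log2 ratio of reads of each immunoproteasome gene over the constitutive gene it replaces, per library, with the group mean and SD (n = 4). In each panel the 4 teNK points lie above the 4 hNK points, with differences in means of 0.68, 0.53 and 0.48; the axes do not start at 0.

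Among the activators that cap the core, none passed the test: *Psme1* had a log2 fold change of 0.06, *Psme2* -0.21, *Psme3* -0.08 and *Psme4* -0.00. *Psme2* was called lower in 5 of 16 alternative settings (adjusted p from 0.00487 to 0.200), among them upper-quartile scaling, library size alone, and the fits without hNK replicate 1 (-0.24) or without teNK replicate 3 (-0.26). *Psme3* was called lower with library size alone (-0.21). The inhibitor gene *Psmf1* fell to 34.1 ± 1.69 CPM in teNK, against 49.4 ± 2.01 CPM in hNK (-0.53 ± 0.07, adjusted p = 8.90e-06). Of the 5 chaperones that assemble the core, 3 were lower, *Psmg2* (-0.36), *Psmg3* (-0.82) and *Psmg4* (-0.40), and the list's median was -0.36. The share called was 60.0%, near the 51.9% of all genes, and the share lower was 60.0%, against 25.6%. *Psmg3* was low, at 1.98 ± 0.186 CPM in teNK and 3.36 ± 1.15 CPM in hNK. Of 12 other proteins that bind the proteasome, 4 were lower and 0 higher, among them the deubiquitinase *Usp14* (-0.27), the adaptor *Ecpas* (-0.15) and *Txnl1* (-0.30). That is 33.3% called, below the 51.9% of all genes, and its share lower is near the 25.6% of all genes.

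Of 6 ubiquitin and E1 genes, *Ubb* was higher, at 567 ± 50.5 CPM in teNK and 416 ± 33.6 CPM in hNK (0.45 ± 0.08). *Rps27a* (-0.44), which encodes a ribosomal protein fused to ubiquitin, was lower. *Ubb* encodes near-identical ubiquitin repeats, so its count is uncertain.

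Of the 11 genes of the NRF1 pathway and its relatives, 6 were lower in teNK and 0 higher (54.5% called, against 51.9% of all genes, and 54.5% lower, against 25.6%), with a median of -0.21. *Nfe2l1* itself had 92.8, 89.0, 92.2 and 92.6 CPM in teNK, against 149.7, 162.1, 180.6 and 152.3 CPM in hNK. The groups were far apart, at -0.81 ± 0.07 (adjusted p = 2.86e-08), and all 16 alternative settings called it. *Mafg*, a small MAF protein that pairs with NRF1 and NRF2, fell farther, to 17.1 ± 1.46 CPM in teNK, against 61.2 ± 8.72 CPM in hNK (-1.85 ± 0.10, adjusted p = 2.16e-10). *Keap1*, the adaptor that directs NRF2 to degradation, averaged 25.0 ± 3.00 CPM in teNK and 42.8 ± 2.92 CPM in hNK (-0.78 ± 0.09). *Nfe2l2*, the gene of NRF2, averaged 119 ± 8.82 CPM in teNK and 166 ± 14.0 CPM in hNK (-0.48 ± 0.07). The protease gene *Ddi2*, whose product cuts NRF1 into its active form, was also lower (-0.21 ± 0.06, adjusted p = 0.0135), as was the small MAF gene *Maff* (-0.45 ± 0.15, adjusted p = 0.0223). Whether these differences bear on the subunit genes was not tested.

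**Figure D5:**
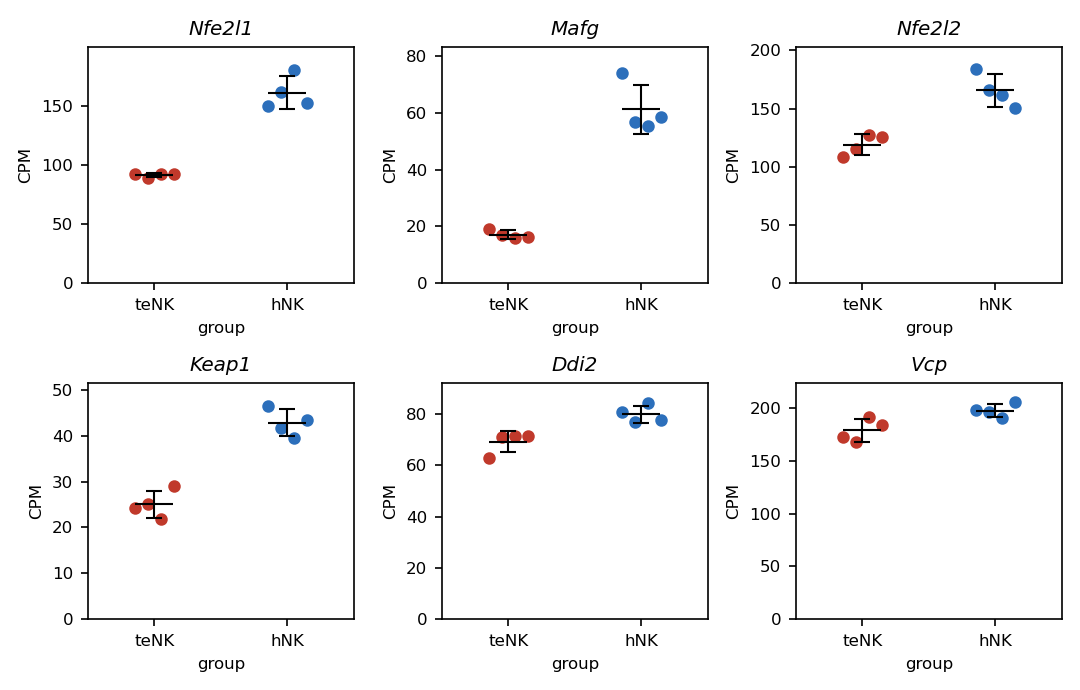
CPM per library of *Nfe2l1*, *Mafg*, *Nfe2l2*, *Keap1*, *Ddi2* and *Vcp* (the last an ATPase that extracts NRF1 from the membrane), with the group mean and SD (n = 4). In the first 5 panels every teNK point lies below every hNK point; *Vcp* overlaps and was not called (log2 fold change -0.14, adjusted p = 0.0579).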

How the data were processed

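Poly(A) RNA of 8 libraries was sequenced (4 teNK, 4 hNK; stranded kit, per the labels' protocols). The authors deposited whole-number read counts per Ensembl gene, without normalization. Per the submitters' processing notes, HISAT2 2.1.0, SAMtools and HTSeq were used with GRCm38; the strand setting and annotation release are not given in the sources used here. Of each file's reads, 32.3% to 41.2% were in no gene and 1.52% to 2.07% ambiguous; these lines stayed out of sizes and tests. Only the teNK descriptions mention several lanes per library, which cannot be told apart from the group. No 2 libraries agreed within sampling noise (chi-square per degree of freedom 3.51 to 11.3 over 12 within-group pairs).

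GENCODE M21 gave symbols, biotypes and coordinates (54723 identifiers matched, 115 not). In R 4.3.3, edgeR 4.0.16 kept 13903 of 27313 genes with a read (filterByExpr by group), scaled them by TMM and tested the group term by quasi-likelihood. P-values were Benjamini-Hochberg adjusted over all 13903, and SE is the log2 fold change over the root of F. CPM uses TMM sizes, except for floors, which use all reads on genes. TPM uses exon-union length. A shared 50-base word is one that also occurs in a transcript of another gene. Floors cover counting error only. The code was tested on simulated counts.

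Alternatives were DESeq2 1.42.0, limma-voom (limma 3.58.1), RLE, upper-quartile and library-size scaling, no filter, a replicate block and each library left out. Thinning to the smallest library and longest-transcript lengths were added after seeing the data. The genes and lists were chosen with earlier results of these data known. Given per library were the catalytic, tissue-specific and *Nfe2l1* genes and, per role, the called gene with the largest rise and fall; *Psmd7*, *Psmd14* and others fell under this rule. From each other list, up to 4 genes with the smallest adjusted p were named. Some genes of these lists are not reported here, and *Paaf1* was not analysed here. *Psmc3ip*, a recombination factor whose symbol only begins like a subunit's, was left out.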

Additional observations from a re-analysis of the deposited data

Results flagged for a closer look

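Among 76 groups of 4 libraries examined, 2 held a library that stood apart from the other 3, where chance gives about 1 in 20. For *Psmd8*, hNK replicate 1 was high at 90.1 CPM, against 83.1, 81.8 and 82.9 CPM in the other hNK libraries, and without it the gene was no longer called. For *Nfe2l1*, teNK replicate 2 was low at 89.0 CPM, against 92.8, 92.2 and 92.6 CPM in the other teNK libraries, a gap that is small beside its distance to hNK.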

How the results depend on the processing

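Over 42 genes under 16 alternatives each, 594 of 672 values kept their direction and call, 33 lost a call, 28 gained one and 17 changed sign. With library size alone, 29 subunit genes were lower and 0 higher (median -0.33), 13 of them core genes (median -0.32; regulatory median -0.35), while the median of all genes moved to -0.15. Upper-quartile scaling called 10 core genes lower. The number called higher was 0 with DESeq2, library size alone, no filter, upper-quartile scaling, thinning and the replicate block. Libraries with the same replicate number had correlations of deviations of 0.04, -0.11, 0.15 and 0.02, within the -0.18 to 0.22 of libraries with different numbers. With 4 libraries per group, these values cannot show whether the libraries were paired. With the replicate block, 20 subunit genes were called, all lower, 6 core and 14 regulatory; the block brought calls of lower for *Psmb5* (-0.40) and *Psme2* (-0.22) and ended that of *Psmd14* (0.18), and it changed no other call among the 42 genes.

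Leaving out 1 library gave 16 to 21 genes called, 15 to 21 lower and 0 to 1 higher. Of these, 4 to 8 were core (median -0.22 to -0.13) and 11 to 14 were regulatory genes called lower (median -0.25 to -0.21). The core share difference ran from -0.112 to 0.499 points, and was -0.0112 by CPM and -0.263 by longest transcript. The differences in log2 ratio ran from 0.61 to 0.74 (*Psmb8*/*Psmb5*), 0.43 to 0.62 (*Psmb9*/*Psmb6*) and 0.42 to 0.52 (*Psmb10*/*Psmb7*); 3 against 4 libraries cannot pass the exact test.

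Sign changes, all in genes not called, were *Psmd6* (-0.0588) and *Psmd13* (-0.0487) with library size alone, *Psmd13* when thinned (-0.0056), *Psme1* with library size alone (-0.0690), *Psmd10* with DESeq2 (0.000364) and RLE (0.000601), and *Psme4* with DESeq2 (0.00732), RLE (0.00746) and no filter (0.00407). Leaving out 1 library gave -0.0969 to 0.0226 for *Psma5*, -0.0495 to 0.0487 for *Psmd10* and -0.0343 to 0.0246 for *Psme4*. The causes were not tested. Depth limits *Psma8*, *Psmb11* and the low *Psmb5* and *Psmg3*.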
